A study of Homo sapiens with 6 samples.

Results

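The APOBEC3 cytidine deaminases were followed at the mRNA level in HCT116, a human colorectal carcinoma cell line with wild-type p53, before and after p53 activation. The family was taken as APOBEC3B, APOBEC3C, APOBEC3D, APOBEC3F, APOBEC3G and APOBEC3H, which are 6 of the 57905 genes in the count table. Each was found through its Ensembl gene ID, which the deposited files pair with a symbol. This rule uses no expression value, but the members were chosen with earlier results of these data known. APOBEC3A, the remaining gene of the cluster, was read beside them and is not a member of the set.

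HCT116 cells received Nutlin-3a at 10 µM, a compound that frees p53 by blocking its binding to MDM2. RNA was sequenced at Nut 0h (DMSO, the vehicle, without Nutlin-3a), Nut 1h and Nut 10h, with 2 biological replicates at each of these 3 conditions. All 6 libraries came from the same single cell line, so the p-values below measure the spread between replicate libraries of HCT116 and not between cell types or donors. The Nut 1h and Nut 10h comparisons use the same Nut 0h libraries and are therefore not independent of each other.

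APOBEC3 enzymes convert cytosine to uracil in single-stranded DNA, and they restrict retroviruses and retroelements by mutating their reverse transcripts. They are best known from lymphoid and myeloid cells and as interferon-responsive genes, whereas APOBEC3B in particular is studied in carcinomas as a source of mutations in the tumor genome. Uracil left in DNA is removed by base excision repair, and HIV Vif directs several of the enzymes to proteasomal degradation through a cullin-based ligase.

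Total gene counts ranged from 26068076 to 35473485 per library, and replicates differed by more than counting noise, as separate libraries do. MDM2, the p53 target and inhibitor, was higher at Nut 1h by 2.19 on the log2 scale and at Nut 10h by 3.75. CDKN1A, which encodes the cell cycle inhibitor p21, differed by 0.05 after 1 h, which was not called (adjusted p = 0.704), and was higher by 3.84 at Nut 10h. The 8 epithelial marker genes summed to between 3541 and 7932 CPM (counts scaled to a common library size) in each library, although VIL1 had at most 10 counts in any of them. Their sum was lowest at Nut 1h, at 3541 and 3852 CPM beside 6130 and 5218 at Nut 0h, with CDX2 lower by 1.29 and CDH1 higher by 0.51 on the log2 scale. At Nut 10h KRT19 was higher by 0.87 and EPCAM lower by 0.32. Mitochondrial genes took between 4.99% and 8.44% of the counts, with the higher shares at Nut 1h, and the part of these differences in the results was not tested. The 14 lymphoid and myeloid markers summed to between 1.45 and 4.27 CPM, with CD3D and MS4A1 at 0 in all 6 libraries and PTPRC at no more than 2 counts.

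The 6 members lie in one tandem array on the plus strand of chromosome 22. In GRCh37, the build of the files, APOBEC3B (ENSG00000179750) occupies chr22:39378352-39388809 and APOBEC3C (ENSG00000244509) chr22:39410262-39416357. APOBEC3D (ENSG00000243811) follows at chr22:39417118-39429282 and APOBEC3F (ENSG00000128394) at chr22:39436609-39451977. APOBEC3G (ENSG00000239713) spans chr22:39473072-39483748 and APOBEC3H (ENSG00000100298) chr22:39493229-39500072. From the start of APOBEC3A to the end of APOBEC3H the array covers 151 kb. APOBEC3B, APOBEC3D, APOBEC3F and APOBEC3G carry tandem deaminase domains, while APOBEC3C and APOBEC3H carry a single one.

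Members of the array share long identical stretches of sequence, which matters for how reads are assigned to them. The longest exact run shared by the coding sequences of any pair was 222 bases, between APOBEC3D (coding bases 737 to 958, within chr22:39425499-39427894) and APOBEC3F (coding bases 698 to 919, within chr22:39445561-39448274). In each gene the run spans 2 coding exons on the plus strand of GRCh37. It is shown because reads that fall entirely inside it fit both genes equally well, and both genes rose in the data below:
APOBEC3D and APOBEC3F, shared coding run: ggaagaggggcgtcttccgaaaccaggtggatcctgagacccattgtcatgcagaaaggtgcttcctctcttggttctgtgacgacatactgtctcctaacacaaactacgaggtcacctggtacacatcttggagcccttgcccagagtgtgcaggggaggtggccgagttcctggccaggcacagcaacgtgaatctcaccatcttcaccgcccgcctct

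Shorter shared coding runs were 196 bases between APOBEC3A and APOBEC3B, 172 bases between APOBEC3B and APOBEC3D, and 142 bases between APOBEC3F and APOBEC3G. APOBEC3C shared at most 81 bases with another member, APOBEC3F, and APOBEC3H at most 20 bases. Cut into 50-base windows, the longest annotated transcript of APOBEC3B shared 27.5% of its windows with other counted genes of the array. The corresponding share was 15.3% for APOBEC3D and 11.0% for APOBEC3F. It was 1.2% for APOBEC3C, whose shared run is short beside its long transcript, and 0.0% for APOBEC3H. The longest annotated transcript of APOBEC3G gave 0.0%, although over its longest coding sequence 8.4% of the windows were shared with APOBEC3F. A readthrough gene annotated across APOBEC3C and APOBEC3D, not used here, raises the APOBEC3D share to 85.1%. The counts of all members but APOBEC3H are therefore uncertain to the extent that reads of near-identical members were split or dropped. APOBEC3B also overlaps the antisense gene APOBEC3B-AS1, which had 0 counts in all 6 libraries.

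**Figure D1:**
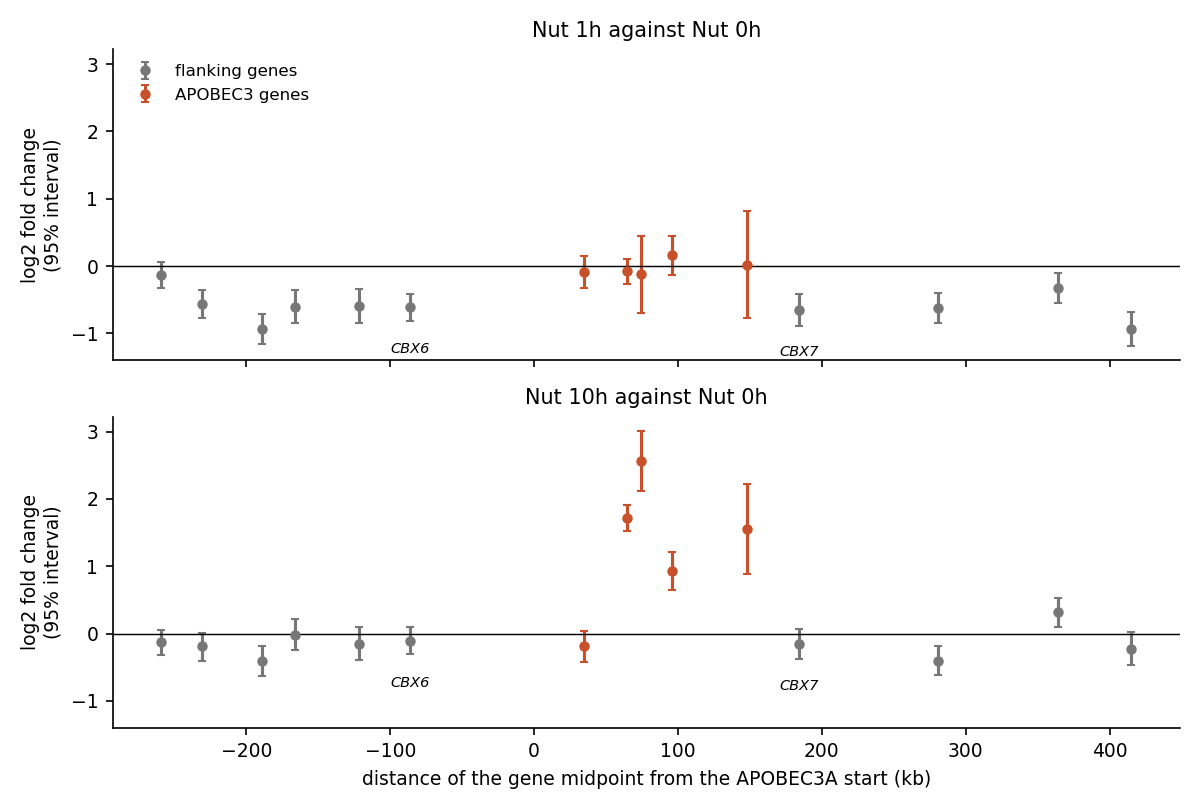
Log2 fold change of the tested APOBEC3 members and flanking genes, placed by gene midpoint in kb from the start of APOBEC3A. The panels show Nut 1h and Nut 10h, each against Nut 0h, with the interval of each value. Color separates members from flanking genes. At Nut 10h APOBEC3C, APOBEC3D, APOBEC3F and APOBEC3H lie between 0.93 and 2.56, while APOBEC3B and the nearest flanking genes CBX6 and CBX7 lie between -0.19 and -0.11.

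Levels were compared between members per kb of transcript, as CPM per kb. APOBEC3C was the most abundant member in every library, with 25.8 and 25.6 CPM per kb under DMSO, 23.8 and 25.0 after 1 h, and 83.0 and 86.1 after 10 h. APOBEC3B came next in every library, at 9.13 and 9.13, then 8.14 and 9.08, then 8.24 and 7.75 CPM per kb. APOBEC3F followed APOBEC3B at Nut 0h, with 1.45 and 1.78 CPM per kb. No library of APOBEC3F at Nut 0h reached the lowest APOBEC3B library or fell to the highest value of APOBEC3D or APOBEC3H.

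APOBEC3H (0.504 and 0.761 CPM per kb) and APOBEC3D (0.396 and 0.611) overlapped at Nut 0h, so their order was not resolved. At Nut 10h APOBEC3D, at 2.77 and 3.21 CPM per kb, overlapped APOBEC3F, at 2.94 and 3.20. APOBEC3H stood below both at Nut 10h, with 2.16 and 1.59 CPM per kb. APOBEC3D had thus moved from the level of APOBEC3H to that of APOBEC3F between the vehicle and 10 h of Nutlin-3a.

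**Figure D2:**
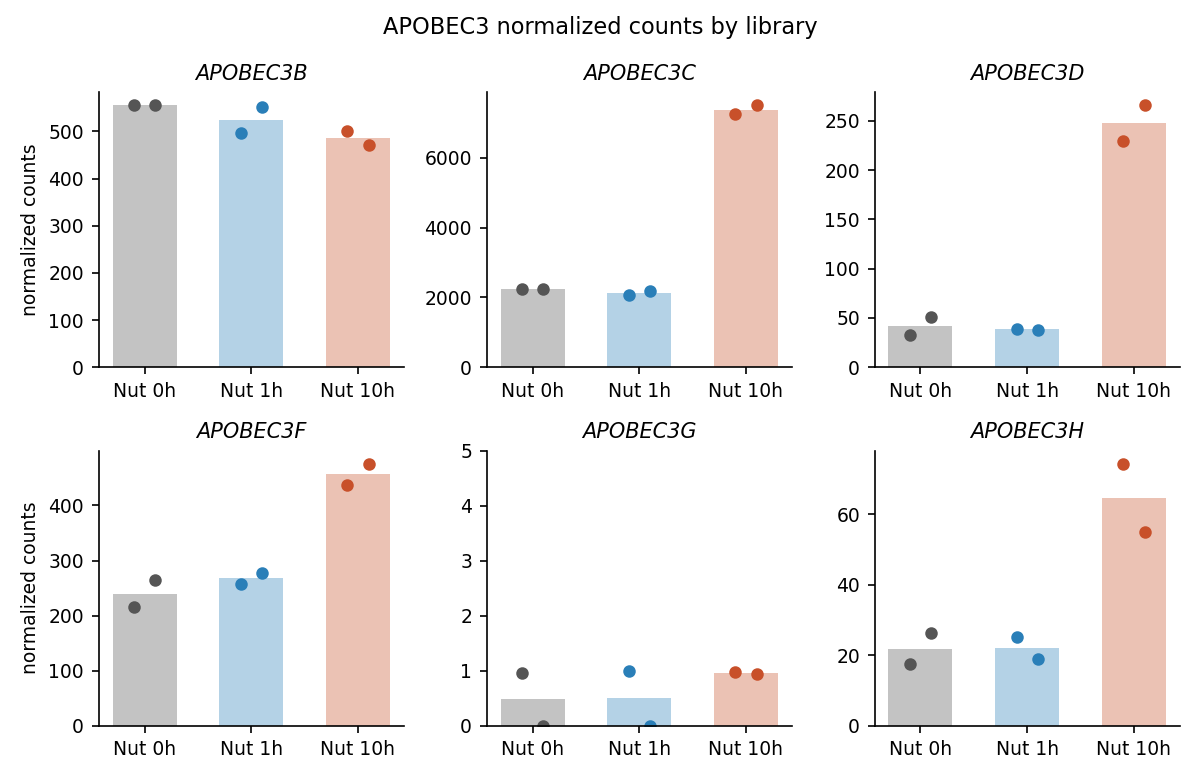
Normalized counts of each APOBEC3 member in each of the 6 libraries, grouped as Nut 0h, Nut 1h and Nut 10h. Points are libraries and bars the mean of each condition, with a separate linear axis for each member. The Nut 10h points of APOBEC3C, APOBEC3D, APOBEC3F and APOBEC3H sit above all 4 earlier points, whereas those of APOBEC3B sit at 502 and 472 against 556 in both Nut 0h libraries.

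APOBEC3G, the HIV restriction factor from which much of the family's biology was worked out, was close to undetected in HCT116. Its counts were 1 and 0 in the vehicle libraries, 1 and 0 after 1 h, and 1 and 1 after 10 h, which are 4 counts in all. A count of 0 allows up to 3 counts, or between 0.0846 and 0.114 CPM across the libraries, so a change of APOBEC3G was not detectable at this depth and the gene was not tested. APOBEC3A, a single-domain deaminase of myeloid cells and keratinocytes, had 1 count over the 6 libraries. Among other APOBEC genes, APOBEC1 and APOBEC4 had 0 counts throughout and APOBEC2 between 2 and 6 counts per library, and none of these was tested.

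After 1 h of Nutlin-3a, 0 of the 5 tested members were called, at an adjusted p of 0.05 or below in edgeR's quasi-likelihood test, against 66.9% of all 16565 tested genes (34.5% upward and 32.3% downward). The 0 held in the DESeq2 Wald test and in limma-voom as well, and 0 members had an unadjusted p under 0.05. The median log2 fold change of the members was -0.08, beside 0.05 over all tested genes and -0.08 over the 1162 tested genes whose transcripts have a GC content between 49.5% and 51.8%, the range of the tested members. The groups did not overlap for APOBEC3B and APOBEC3C, which is 2 of 5 members beside 84.8% of all tested genes. The intervals are wide for the low members, so a missed threshold does not show that a member stayed the same.

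APOBEC3C at Nut 1h had a log2 fold change of -0.08 with a 95% interval from -0.27 to 0.11 (adjusted p = 0.461), and APOBEC3B one of -0.09 with an interval from -0.32 to 0.15 (adjusted p = 0.497). For APOBEC3F the value was 0.16, with an interval from -0.14 to 0.45 (adjusted p = 0.336). APOBEC3D (-0.12, interval -0.70 to 0.45) and APOBEC3H (0.02, interval -0.77 to 0.81) were the least well determined, with counts between 15 and 54 per library at these times.

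After 10 h of Nutlin-3a, 4 of the 5 tested members rose and 0 fell, against 29.0% of all tested genes called, 14.1% upward and 14.9% downward. The members that rose were APOBEC3C, APOBEC3D, APOBEC3F and APOBEC3H. APOBEC3C, APOBEC3D and APOBEC3H, or 3 of 5, rose by at least 1 on the log2 scale, beside 3.74% of all tested genes, and APOBEC3D by at least 2, beside 1.06%. Because the members were chosen with earlier results of these data known, these shares are given as a description. The median log2 fold change of the 5 members was 1.56, beside 0.00017 over all tested genes and 0.01 over the 1162 genes of like GC content. In all 5 the Nut 10h libraries did not overlap those of Nut 0h, which was also true of 61.4% of all tested genes. These are bulk libraries, in which a change in the number of expressing cells and a change in RNA per cell cannot be told apart.

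APOBEC3C, a single-domain enzyme found in both cytoplasm and nucleus, gave the best determined change. Its normalized counts (CPM scaled back to the mean library size) were 2251 and 2239 with DMSO, 2075 and 2181 after 1 h of Nutlin-3a, and 7247 and 7514 after 10 h. Both Nut 10h libraries lay far above the other 4, which kept within a narrow band. APOBEC3C averaged 2245 ± 8.36 (SD, n = 2) at Nut 0h and 7381 ± 189 (SD, n = 2) at Nut 10h, a 3.29-fold rise. The log2 fold change was 1.72 with a standard error (SE) of 0.09 and an interval from 1.52 to 1.91 (adjusted p = 7.77e-09), and 1.62% of tested genes had a larger one.

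APOBEC3D, a tandem-domain enzyme packaged into HIV virions and targeted by Vif, had the largest log2 fold change of the members at Nut 10h. Normalized counts of APOBEC3D were 32.9 and 50.7 with DMSO, 39.1 and 37.8 after 1 h, and 230 and 266 after 10 h. The Nut 1h pair fell inside the range of the Nut 0h pair, and the lower Nut 10h library stood well clear of all 4. Means were 41.8 ± 12.6 (SD, n = 2) at Nut 0h and 248 ± 25.5 (SD, n = 2) at Nut 10h, a 5.91-fold rise. The log2 fold change was 2.56 ± 0.21 (SE; interval 2.12 to 3.01; adjusted p = 4.23e-07), and 103 tested genes, or 0.622%, rose more. The Nut 0h counts behind it were 34 and 54 reads, and the value ranged from 2.29 to 2.91 as single libraries were left out.

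APOBEC3F, another tandem-domain enzyme that enters virions and is a Vif target, showed the smallest of the 4 rises. APOBEC3F had 215 and 265 normalized counts in the vehicle libraries, 258 and 278 in those of 1 h, and 437 and 476 in those of 10 h. The vehicle and 1 h libraries overlapped, and the 10 h libraries lay above both. The means of 240 ± 34.9 and 456 ± 27.2 (SD, n = 2 each) gave a 1.90-fold rise, or 0.93 ± 0.13 on the log2 scale (SE; interval 0.64 to 1.21; adjusted p = 0.000111). Of all tested genes, 6.01% had a larger log2 fold change.

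APOBEC3H, a single-domain enzyme whose protein stability differs between human haplotypes, was low but rose as well. Its normalized counts were 17.4 and 26.3 without Nutlin-3a, 25.1 and 18.9 at 1 h, and 74.4 and 54.9 at 10 h. The lower Nut 10h library still lay above the highest of the 4 earlier ones. Mean levels of 21.8 ± 6.29 and 64.7 ± 13.8 (SD, n = 2 each) gave a 2.94-fold rise, or 1.56 ± 0.31 on the log2 scale (SE; interval 0.89 to 2.22; adjusted p = 0.00176). The raw counts of APOBEC3H ran only from 15 to 77, so its size is the least certain of the 4, and 2.02% of tested genes had a larger log2 fold change.

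APOBEC3B, the nuclear tandem-domain enzyme linked to mutation in carcinomas, did not share the rise. Normalized counts of APOBEC3B were 556 and 556 with the vehicle, 496 and 552 after 1 h, and 502 and 472 after 10 h. Both 10 h libraries were below both vehicle libraries, by little. The means were 556 ± 0.208 and 487 ± 21.2 (SD, n = 2 each), and the log2 fold change was -0.19 ± 0.11 (SE; interval -0.42 to 0.04; adjusted p = 0.208), which was not called. With an offset for GC content APOBEC3B was called lower, at -0.24 (adjusted p = 0.0487), and with this offset and the replicate number as a block it was not, at -0.24 (adjusted p = 0.0574). In none of these fits was APOBEC3B higher at Nut 10h, and the upper end of its interval lies under the lower end of the interval of each of the other 4 tested members, a description of separate intervals and not a test between genes.

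**Figure D3:**
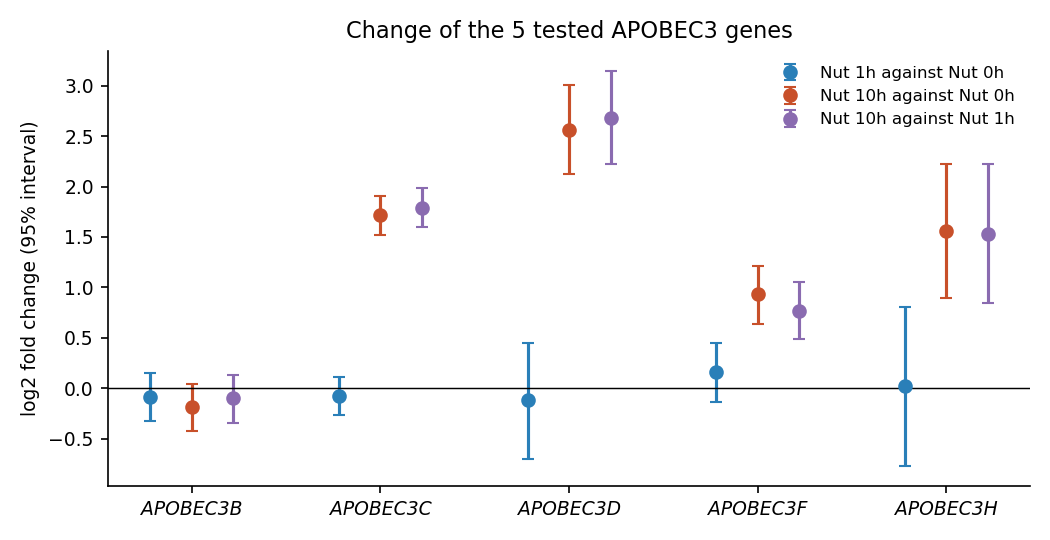
Log2 fold change of the 5 tested APOBEC3 members at Nut 1h and Nut 10h, each against Nut 0h, and at Nut 10h against Nut 1h. The 95% intervals come from edgeR's quasi-likelihood fit. The intervals for Nut 1h against Nut 0h all include 0. For Nut 10h against Nut 0h those of APOBEC3C, APOBEC3D, APOBEC3F and APOBEC3H lie above 0, while that of APOBEC3B runs from -0.42 to 0.04.

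With Nut 1h in place of Nut 0h as the reference for Nut 10h, 4 of 5 tested members rose and 0 fell, against 67.9% of all tested genes called, 34.2% upward and 33.7% downward. The groups did not overlap for these 4 members, beside 85.0% of all tested genes. APOBEC3D was higher at Nut 10h by 2.68 ± 0.22 (SE) on the log2 scale (6.43-fold; adjusted p = 1.2e-07) and APOBEC3C by 1.79 ± 0.09 (3.47-fold; adjusted p = 1.76e-09). APOBEC3H was higher by 1.53 ± 0.32 (2.89-fold; adjusted p = 0.000675) and APOBEC3F by 0.77 ± 0.13 (1.71-fold; adjusted p = 0.000136). APOBEC3B was not called, at -0.10 ± 0.11 (interval -0.34 to 0.13; adjusted p = 0.413), and with the GC-content offset it was called lower, at -0.30 (adjusted p = 0.0108). This comparison shares the Nut 10h libraries with the one above and is no separate support for the rises.

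The makeup of the family's mRNA shifted with these changes. Summed over the 6 members, the level was 37.3 and 37.9 CPM per kb with DMSO, 34.9 and 36.9 after 1 h, and 99.1 and 102 after 10 h. APOBEC3C supplied between 67.6% and 69.2% of that sum in the 4 earlier libraries, and 83.7% and 84.5% at Nut 10h. The share of APOBEC3B, between 23.4% and 24.6% before, was 8.31% and 7.61% at Nut 10h, while its own level changed little. APOBEC3D went from between 1.06% and 1.61% to 2.80% and 3.15%.

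**Figure D4:**
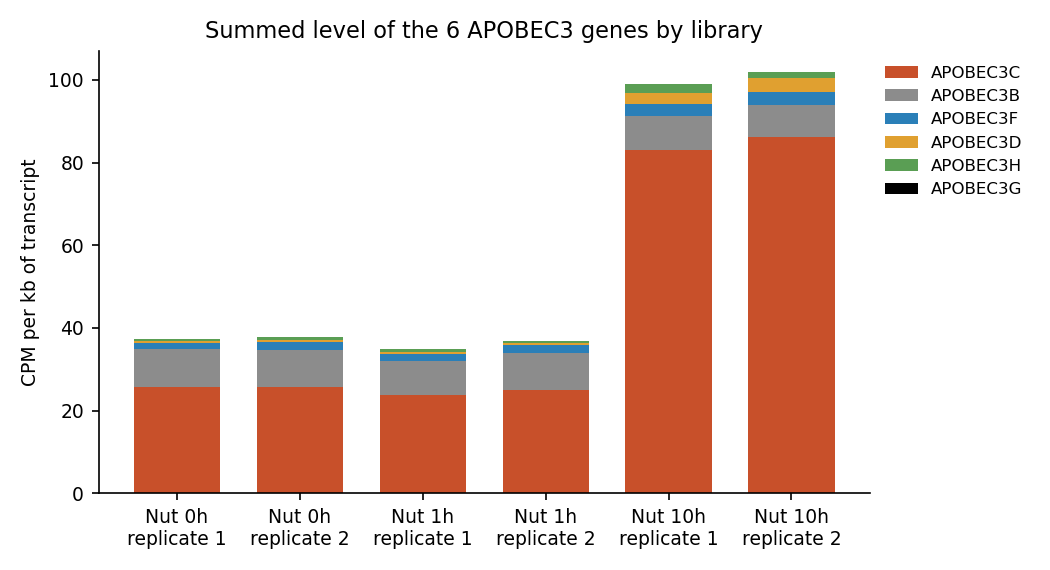
Level of the APOBEC3 family in CPM per kb in each of the 6 libraries, stacked by member. The total is between 34.9 and 37.9 in the Nut 0h and Nut 1h libraries and reaches 99.1 and 102 at Nut 10h, with most of the added height in APOBEC3C.

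Ratios within a library do not depend on its scaling, and those given here moved in the same way, except that of APOBEC3H to APOBEC3C. This one overlapped, at 0.0195 and 0.0297 with DMSO and 0.026 and 0.0185 after 10 h. The level of APOBEC3C per kb was between 2.75 and 2.92 times that of APOBEC3B in the Nut 0h and Nut 1h libraries, and 10.1 and 11.1 times at Nut 10h. APOBEC3D stood at 0.273 and 0.342 times APOBEC3F with DMSO, at 0.271 and 0.243 times after 1 h, and at 0.941 and 1.00 times after 10 h. How reads that map to several members were counted is not given in the sources used here, and its part in these values was not tested.

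The genes on either side of the array were described beside it. CBX6, a Polycomb component, ends 80.5 kb before APOBEC3A, and CBX7, another one, begins 16.1 kb after APOBEC3H. At Nut 10h the log2 fold change was -0.11 for CBX6 (adjusted p = 0.426) and -0.16 for CBX7 (adjusted p = 0.285), and neither was called. Among 10 flanking genes tested, RPL3, a ribosomal protein gene, rose by 0.32 (adjusted p = 0.0302), and SUN2 and PDGFB fell by 0.41 each (adjusted p = 0.00837 and 0.0074), and the other 7 were not called. That is 10% higher and 20% lower, against a background of 14.1% and 14.9%. The flanking median was -0.15, beside 1.56 for the tested members. With Nut 1h as the reference, 8 of the 10 were called higher at Nut 10h and 0 lower (background 34.2% and 33.7%), with a median of 0.50, beside 1.53 for the tested members. With the GC-content offset this became 0 higher and 6 lower, in a fit that called 4771 of all genes higher and 4811 lower, and in which 4 members were called higher and 1 lower.

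At Nut 1h 9 of the 10 flanking genes were called lower (background 32.3%), with a median of -0.61 beside 0.05 over all tested genes, CBX6 at -0.61 (adjusted p = 5.74e-05) and CBX7 at -0.66. SYNGR1, a synaptic vesicle protein gene, had the largest of these, at -0.94. With the GC-content offset the 9 fell to 1 lower and 2 higher, in a fit that called 3405 of all genes higher and 4115 lower, beside 5722 and 5355 without it. The flanking transcripts have 51.0% to 60.6% GC, beside 49.5% to 51.8% in the tested members.

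Interferon-stimulated genes and restriction factors, among which several APOBEC3 genes are usually counted, were examined beside the members. At Nut 10h 5 of 28 tested genes were called higher (17.9%, background 14.1%) and 1 lower (3.57%, background 14.9%), and 22 were not called, with a median of 0.09. TRIM5, the capsid-binding restriction factor, rose by 1.29 (adjusted p = 4.31e-07). The other 4, named after their values were seen, were TRIM22 (2.40, on a mean of 19 normalized counts), STAT2 (0.60), OASL (0.55) and ZC3HAV1 (0.45). TRIM22 averaged 7.17 normalized counts at Nut 0h and 38.3 at Nut 10h. It passed the low-count filter through Nut 10h, where it is high, so its call carries no weight although the 5 include it. OAS3, a sensor of double-stranded RNA, fell by 0.76 (adjusted p = 2.01e-05). At Nut 1h 13 were called higher (46.4%, background 34.5%) and 9 lower (32.1%, background 32.3%), including EIF2AK2, the kinase PKR, at 1.26 and IRF7 at -1.23, and with the GC-content offset 10 were higher and 3 lower, beside 3405 and 4115 of all genes in that fit.

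Transcription factors tied in the literature to APOBEC3B, those of the E2F and DREAM complexes and of NF-kB, formed a second group. Of 20 tested, 11 were lower at Nut 10h (55%, background 14.9%) and 2 higher (10%, background 14.1%), with a median of -0.34. The lower calls were all E2F and DREAM genes. The NF-kB genes NFKB1 (-0.036), NFKB2 (-0.26), RELA (-0.087) and RELB (0.079) were not called. E2F1, an activator of S-phase genes, fell by 2.44 (adjusted p = 1.43e-08), E2F8 by 2.31, MYBL2 by 1.66, FOXM1 by 1.54 and RBL1 by 1.44. The repressor E2F7 was called higher at 0.33 (adjusted p = 0.05) and RBL2 at 0.31, and neither call was made by the DESeq2 Wald test. At Nut 1h 10 were called higher (50%, background 34.5%), RBL1 the most at 0.87, and 8 lower (40%, background 32.3%), RELB the most at -1.17, and with the GC-content offset 1 was called higher and 7 lower, in a fit that called 3405 of all genes higher and 4115 lower. The log2 fold change of APOBEC3B itself was -0.19 at Nut 10h, as given above.

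Genes of uracil removal and base excision repair, which act on the product of the deaminases, went lower or were not called at Nut 10h. Of 13 tested, 6 fell (46.2%, background 14.9%) and 0 rose (background 14.1%), with a median of -0.25. UNG, the main uracil DNA glycosylase, fell by 1.67 (adjusted p = 9.77e-09) and the flap endonuclease FEN1 by 1.63. The others were the glycosylase MBD4 (-0.74), the scaffold XRCC1 (-0.51), the ligase LIG1 (-0.37) and PARP1 (-0.34). Fewer of the 13 were called lower when the first Nut 0h library or the second Nut 10h library was left out, and so were fewer of all genes. At Nut 1h 5 were called higher and 5 lower (38.5% each, background 34.5% and 32.3%), among them TDG, the thymine DNA glycosylase, at 0.90 and XRCC1 at -0.86. The 5 higher became 3 in the DESeq2 Wald test, where 4392 of all genes were higher, beside 5722 in the main fit. They became 2 with the GC-content offset, where 3405 of all genes were higher. Fewer were called higher when any of the Nut 0h or Nut 1h libraries was left out, and so were fewer of all genes. The same held for the 5 lower when the first Nut 1h library was left out.

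Host cofactors that Vif uses for APOBEC3 degradation were called at Nut 10h about as often as all tested genes, with 1 of 6 higher and 1 of 6 lower (16.7% each, background 14.1% and 14.9%). CUL5, the cullin scaffold, was called higher at 0.30 (adjusted p = 0.0324) and CBFB, which stabilizes Vif, lower at -0.34 (adjusted p = 0.0113). Each of these calls was lost in some fits, that of CUL5 in the DESeq2 Wald test and that of CBFB without Nut 0h replicate 2 or without Nut 10h replicate 1. At Nut 1h 4 were called higher (66.7%, background 34.5%), CUL5 the most at 1.03, and 1 lower (16.7%, background 32.3%), the elongin B gene TCEB2 at -1.57. With the GC-content offset 1 was called higher and 3 lower, beside 3405 and 4115 of all genes.

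RNA of blood cells, in which APOBEC3 genes are abundant, was low in every library. Summed lymphoid and myeloid markers were 4.27 and 2.47 CPM with DMSO and 2.46 and 2.71 CPM after 10 h. Single markers moved in either direction, and their part in the results was not tested. ITGAM, an integrin of myeloid cells, had 12 and 14 counts with DMSO and 46 and 40 after 10 h, and was called higher at 1.71 on the log2 scale (adjusted p = 0.00204). LYZ, lysozyme, had 78 and 21 counts with DMSO, 3 and 0 after 1 h, and 3 and 1 after 10 h. It passed the low-count filter only through the Nut 0h libraries, where it is high. A fall was thus the only call open to it, and its log2 fold change of -4.55 is given as a description.

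Genes with the most similar pattern over the 6 libraries were found by the Euclidean distance between centered log2(CPM + 1) profiles, a measure that compresses low genes. For APOBEC3C they were RP3-510D11.2 (distance 0.198), HHAT (0.205), an acyltransferase of hedgehog proteins, and DDB2 (0.226), which recognizes ultraviolet damage in DNA. For APOBEC3D they were TCTEX1D4 (0.171), KIAA0247 (0.208) and DGKA (0.283), a diacylglycerol kinase. APOBEC3F lay nearest to ANKRD19P (0.071), YPEL5 (0.136) and PODXL (0.139), and APOBEC3H to RP11-318M2.2 (0.182), ABAT (0.184) and FAM92B (0.189). The flat profile of APOBEC3B was nearest to RP11-103G8.2 (0.0263, on a mean of 12.8 normalized counts), RIPK2 (0.0403) and CTNNBL1 (0.0543). Nearness on this scale does not mean an equal fold change for low genes: at Nut 10h FAM92B, on a mean of 11.3 normalized counts, had a log2 fold change of 3.16 beside 1.56 for APOBEC3H, and RP3-510D11.2, on 45.6, one of 2.95 beside 1.72 for APOBEC3C. No gene was among the nearest 3 of more than 1 member.

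Of the 6 members, 1 had a promoter in the RefSeq table used here, APOBEC3H. Its window runs from 250 bases before to 50 after the start, at chr22:39096994-39097293 on the plus strand of GRCh38.p14, a build other than that of the counts. It is shown because it belongs to a member that rose. The capitals mark a 23-base run that occurs in 2 exact copies on either side of the start:
APOBEC3H promoter: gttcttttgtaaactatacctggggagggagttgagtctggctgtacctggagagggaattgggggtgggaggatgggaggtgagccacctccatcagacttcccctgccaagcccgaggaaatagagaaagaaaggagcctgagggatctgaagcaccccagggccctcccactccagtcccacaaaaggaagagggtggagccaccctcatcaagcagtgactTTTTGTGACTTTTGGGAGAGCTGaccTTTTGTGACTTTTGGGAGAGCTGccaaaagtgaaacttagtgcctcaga

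The window was searched on both strands for the p53 response element, for the interferon-stimulated element core GAAANNGAAA and for the E2F site in the forms TTTCCCGC, TTTCGCGC, TTTGCCGC and TTTGGCGC. None of these letters occurred in it. Among 35116 promoters of the table, 6.63% held a single p53 decamer, 0.0285% a pair of them at most 13 bases apart, 3.57% GAAANNGAAA and 3.31% an E2F form. No match says only that these letters are not in this window, and nothing follows from it about the factors or about the other members, whose promoters were not analysed here.

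Over 17 alternatives the log2 fold change at Nut 10h against Nut 0h ranged from 1.66 to 1.76 for APOBEC3C, from 2.29 to 2.91 for APOBEC3D, from 0.78 to 1.08 for APOBEC3F and from 1.29 to 1.88 for APOBEC3H. Each was called in all 17, with a highest adjusted p of 0.0149, for APOBEC3H. APOBEC3B ranged from -0.24 to -0.13 and was called in 1 of the 17.

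**Figure D5:**
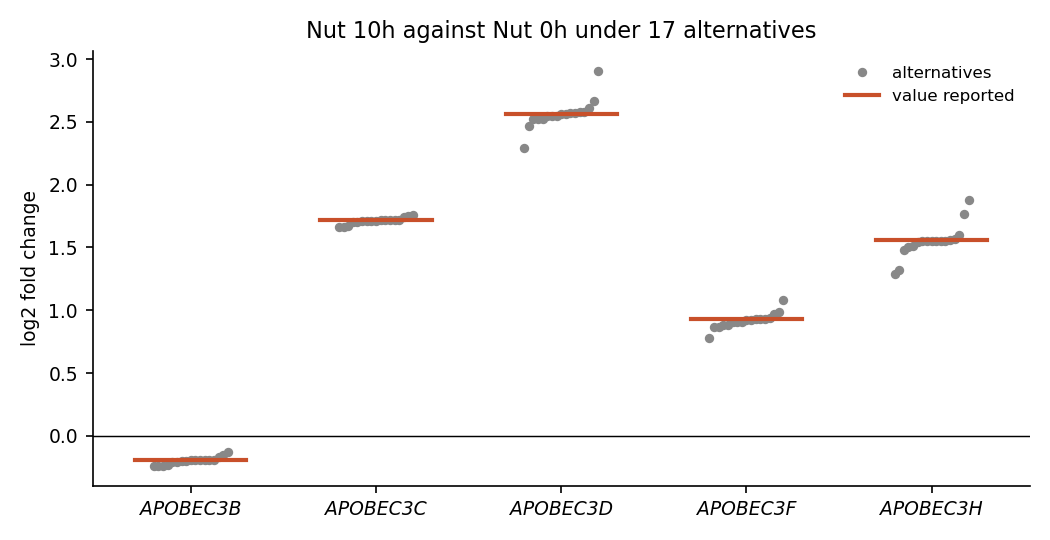
Log2 fold change of the 5 tested APOBEC3 members at Nut 10h against Nut 0h in the main fit and in each of 17 alternative fits. The points of each member stay close together, with APOBEC3D spread the most, from 2.29 to 2.91, and APOBEC3B below 0 throughout.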

How the data were processed

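RNA of HCT116 cells was sequenced in 6 libraries. Per the submitters' processing notes, the authors used Trim Galore 0.6.6, STAR 2.7.0f, GRCh37.p13 and featureCounts (Subread 2.0.0). The deposited values are raw counts per gene. Strand and multi-mapping settings are not given in the sources used here. The authors' table of DESeq2 1.36.0 results (fold changes, p-values) served only to pair IDs with symbols.

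Genes were filtered with filterByExpr, scaled by TMM and tested with edgeR 4.0.16 (quasi-likelihood, R 4.3.3) on all 6 libraries, with condition as the only term and 3 residual degrees of freedom. Benjamini-Hochberg adjustment ran over 16565 genes, and calls needed an adjusted p of at most 0.05. The fit was tested on simulated data. DESeq2 1.42.0 and limma 3.58.1 (voom) gave alternatives. Transcript length, GC content and coordinates came from GENCODE lifted to GRCh37, promoters from RefSeq GRCh38.p14. CPM per kb used the longest transcript.

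Members and gene lists were chosen with earlier results of these data known. Named genes were all members, CDKN1A and MDM2, the nearest flanking genes, the 3 genes nearest in pattern to each member and, in each list, the called gene with the largest rise and fall against Nut 0h among those with at least 100 normalized counts. Others named were chosen after their values were seen. Protein sequences were not analysed here.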

Additional observations from a re-analysis of the deposited data

How the results depend on the processing

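Depth limited the low members, with APOBEC3G untestable and APOBEC3H and APOBEC3D resting on 15 to 54 counts per library before Nut 10h. With 2 libraries per condition, intervals at Nut 1h allow changes of up to 0.81 for APOBEC3H on the log2 scale. With the GC-content offset APOBEC3B was called lower at Nut 10h against Nut 0h (-0.24, adjusted p = 0.0487; with the replicate block added, -0.24 and 0.0574, not called) and against Nut 1h (-0.30, adjusted p = 0.0108), and with this offset and the replicate block against Nut 1h (-0.30, adjusted p = 0.0133), so that the number of members called lower went from 0 to 1. Over the 17 alternatives the adjusted p of APOBEC3B ranged from 0.0487 to 0.547 against Nut 0h and from 0.0108 to 0.959 against Nut 1h. The cause was not tested.

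Over all genes, 5722 were called higher at Nut 1h against Nut 0h, 3405 with the GC-content offset and 3303 with the offset and the replicate block. At Nut 10h against Nut 0h 2470 were called lower, and between 1641 and 2528 as each library was left out, the lowest without Nut 0h replicate 1. No member's called direction reversed. Of 612 list counts under alternatives, 530 kept within 1.5 times the main count and 82 did not.

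Nothing in the labels says that replicate numbers pair the libraries, and the data were mixed: deviations of same-numbered libraries correlated at -0.31 between Nut 0h and Nut 1h, 0.45 between Nut 0h and Nut 10h, and -0.28 between Nut 1h and Nut 10h. With the replicate block 2371 genes were called higher and 2522 lower at Nut 10h against Nut 0h, beside 2340 and 2470 without it, and no call of a member changed.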
